A study of Mus musculus with 7 samples.

Results

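The genes described here are 36 genes of glucose uptake, glycolysis, lactate and pyruvate handling and the pentose phosphate pathway, read in sorted mouse Langerhans cells (LC) from unirradiated and irradiated mice. They were chosen by symbol, as the deposited annotation writes it or under an older or newer synonym. All 36 were found among 21755 gene symbols, and 35 of them passed the filter on dim genes that left 13053 genes to test. Fbp1, the gene of fructose-1,6-bisphosphatase, was the 1 that did not pass. By role, 3 belong to glucose transport, 19 to glycolysis, 7 to lactate and pyruvate, and 7 to the pentose phosphate pathway.

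Glycolysis splits glucose into pyruvate in the cytosol and gives ATP without oxygen. The pyruvate is either reduced to lactate and exported, or oxidised in mitochondria by pyruvate dehydrogenase. The pentose phosphate pathway leaves glycolysis at glucose-6-phosphate: its oxidative branch makes NADPH, which serves lipid synthesis and the reduction of glutathione, and its non-oxidative branch makes ribose for nucleotides and returns carbon to glycolysis. In dendritic cells, the family to which LC of the epidermis belong, stimulation through Toll-like receptors is known to raise glycolytic flux.

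The 4 control arrays carry RNA of LC from naive mice, and the 3 irradiated arrays that of LC from mice treated beforehand with 12 Gy of ionizing radiation. All mice were adult wild-type animals of the strain written C57:Bl6, and cells sorted by flow cytometry were pooled to reach a set number per sample. By its title the study is on p21 and the resistance of LC to radiation; Cdkn1a, the p21 gene, was at 11.24 to 11.47 in the controls and at 11.97 to 12.64 in the irradiated arrays. The labels do not give the time after irradiation or the sex, nor whether the samples of a group are separate pools. The error behind each p-value is thus the spread among deposited samples, possibly a technical one. Controls 1 and 4 are described by an earlier record each, and the other samples by none. In pooled RNA, fewer cells of a type and less RNA per cell cannot be told apart.

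Levels are log2 of the deposited probe signal, and differences are irradiated minus control unless another direction is named. Median signals per array lay between 80.2 and 88.2, and 7 arrays limit the precision. Among 6 arrays the correlations across tested genes were 0.858 or higher, while the array labelled irradiated 1 correlated with them at 0.6495 to 0.728. That array also went against its label: 9 of 10 LC markers lay below every control, among them Cd207, the langerin gene, at 5.64 and the class II gene H2-Aa at 6.52. Over all genes tested 40.4% lay below every control in that array. Its summed LC marker signal was 1104, against 37191 to 42637 in the controls and 48434 and 48202 in irradiated 2 and 3. Its summed keratinocyte, fibroblast and erythroid marker signals were 22355, 23665 and 20918, against control ranges of 3677 to 14067, 1714 to 7733 and 480 to 1121. No defining marker was at 0 in any array. Fold changes and calls of the members are therefore given with and without irradiated 1. LC markers also differed among the other arrays. Cd207 was at 11.49, 10.96, 8.85 and 8.91 in controls 1 to 4, and at 12.35 and 11.86 in irradiated 2 and 3. Of the 10 LC markers, 5 and 6 lay above every control in irradiated 2 and 3, and 1 below in each. Over all genes tested 18.3% and 19.5% lay above and 35.1% and 25.7% below. The marker below was Itgax (-1.14 without irradiated 1, limma adjusted p = 0.0247; -2.06 and 0.149 with all arrays). The level of Xist, an RNA made where an X chromosome is silenced, was at 10.94 to 11.71 in the controls and at 5.31 to 5.93 in the irradiated arrays, and the Y-linked Ddx3y at 4.35 to 5.45 and 6.67 to 8.71. An effect of irradiation and one of this difference cannot be told apart in any comparison below.

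Over all 7 arrays 4 of the 35 tested members fell and 0 rose past the threshold of limma (adjusted p under 0.05 over 13053 genes): G6pdx and Tkt of the pentose phosphate pathway, and Aldoc and Gapdh of glycolysis. Over all genes tested 1.56% were called lower and 0.115% higher in this comparison. At an unadjusted p under 0.05, 17 members were lower and 2 higher, against 16.1% and 3.6% of all genes. Without irradiated 1, 5 members fell, the same 4 and Ldha, and 1 rose, Hk2, where 3.06% of all genes were called lower and 1.58% higher. At an unadjusted p under 0.05, 14 members were then lower and 2 higher, against 15.1% and 6.56% of all genes. The median log2 fold change over the 36 members was -0.48 with all arrays and -0.31 without irradiated 1, against -0.050 and -0.047 over all genes tested. With all arrays the median over all genes was 0.065 with no filter and -0.16 with the lowest 60% left out. In these settings 10.4% and 19.6% of genes were lower at an unadjusted p under 0.05 (limma). The background thus depended on brightness, and genes matched to the members in brightness were not compared. The mean was lower after irradiation in 25 of the 36, and in 27 without irradiated 1, where 55% and 56.4% of all genes tested had a lower mean.

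In 15 of 35 members every irradiated array lay below every control, and in 2, Hk2 and Ldhb, above. Over all genes these shares were 15.3% and 3.46%. Without irradiated 1 the same 15 lay below and 3 above, Pfkfb4 being the third, against 20.3% and 10.2% of all genes. The 15 were Gpi1, Pfkp, Aldoa, Aldoc, Tpi1, Gapdh, Pgk1, Pgam1 and Eno1 of glycolysis, Ldha, Pdhb and Pdk1 of the lactate and pyruvate group, and G6pdx, Tkt and Taldo1 of the pentose phosphate pathway. Taken singly, irradiated 1, 2 and 3 lay below all 4 controls in 23, 18 and 18 of the 35 members, that is in 65.7%, 51.4% and 51.4%. Over all genes tested they did so in 40.4%, 35.1% and 25.7%. Irradiated 1, which lacked the LC markers, thus lay below the controls in most of these genes, as did the other 2 irradiated arrays.

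Both the calls and the sizes depended on single arrays. The members called lower numbered 6 without control 1, 0 without control 2, 1 without control 3, 0 without control 4, 5 without irradiated 1, 0 without irradiated 2 and 0 without irradiated 3. Of all genes 2.21%, 0.146%, 0.352%, 0.0153%, 3.06%, 0.0153% and 0.375% were called lower in these comparisons. The matching counts at an unadjusted p under 0.05 were 19, 12, 12, 12, 14, 13 and 12, where 19.3%, 11.8%, 11.5%, 11.4%, 15.1%, 11% and 17.1% of all genes were lower. Over the same comparisons the log2 fold change of Tkt stayed between -1.38 and -1.17 and that of G6pdx between -1.43 and -1.23. Other members moved more, Slc2a1 from -0.73 to -0.22, Gpi1 from -0.94 to -0.44, Pgk1 from -0.96 to -0.495 and Pfkfb4 from 0.17 to 1.04. The median over the 36 members lay between -0.54 and -0.31. Set against controls 2 and 3 only, irradiated 2 and 3 gave 0 members called by limma, with 15 lower and 2 higher at an unadjusted p under 0.05 (15.6% and 5.98% of all genes) and a median log2 fold change of -0.35. In that comparison 0% of all genes were called lower and 0.00766% higher.

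**Figure D1:**
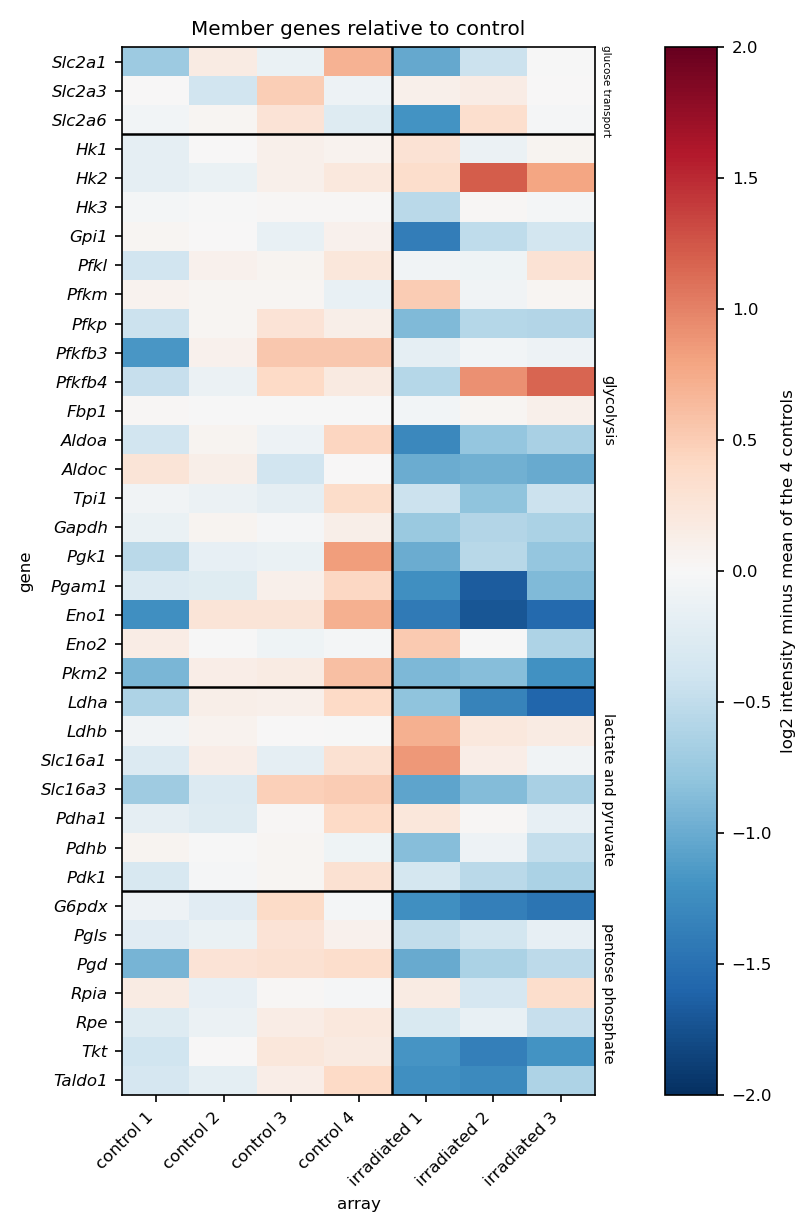
Log2 intensity of each of the 36 member genes (rows) in each of the 7 arrays (columns), minus the mean of the 4 controls of that gene; blue is lower and red higher, and lines part the 4 role groups. G6pdx, Tkt, Aldoc and Gapdh are blue in all 3 irradiated arrays, and Hk2 is red in all 3.

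The controls also differed among themselves in these genes. Control 1 was the lowest control in 24 of the 35 tested members (68.6%) and control 4 the highest in 19 (54.3%). Over all genes tested control 1 was the lowest in 39.8% and control 4 the highest in 25.9%. In Eno1, Pkm2, Pgd and Pfkfb3 control 1 lay apart from the other 3 controls. Pkm2, the gene of the muscle-type pyruvate kinase now named Pkm, stood at 9.02 in control 1 and at 10.07, 10.09 and 10.54 in controls 2, 3 and 4. In Pfkfb3, whose enzyme makes the activator of phosphofructokinase, the values were 6.71, 7.97, 8.42 and 8.41. The irradiated arrays were at 9.03, 9.08 and 8.71 for Pkm2, where control 1 lay among them, and at 7.70, 7.83 and 7.77 for Pfkfb3, where it lay below all 3.

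The sequences upstream of 4 of the members called in either comparison are shown because these genes moved in different directions. Short motifs were searched on both strands in the promoter windows of RefSeq (GRCm38.p6), which run from 250 bases before to 50 after a gene start: ACGTG or GCGTG, the core bound by hypoxia-inducible factors; CACGTG, the E-box bound by Myc and by Mlx partners, which holds ACGTG on both strands; and TGACNNNGC, the core of the antioxidant response element. In the lines below capitals mark ACGTG or GCGTG and TGACNNNGC on either strand. The windows lie at chr7:46845554-46845853, plus strand for Ldha (the first of its 2 windows), at chr6:82774405-82774704, minus strand for Hk2, at chrX:74428831-74429130, minus strand for G6pdx and at chr14:30548881-30549180, plus strand for Tkt.
Ldha: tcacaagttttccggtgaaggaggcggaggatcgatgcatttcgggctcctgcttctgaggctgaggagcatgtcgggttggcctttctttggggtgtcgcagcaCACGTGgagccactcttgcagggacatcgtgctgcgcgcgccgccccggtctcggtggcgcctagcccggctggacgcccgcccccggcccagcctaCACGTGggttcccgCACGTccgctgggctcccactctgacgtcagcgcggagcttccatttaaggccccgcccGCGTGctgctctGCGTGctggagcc
Hk2: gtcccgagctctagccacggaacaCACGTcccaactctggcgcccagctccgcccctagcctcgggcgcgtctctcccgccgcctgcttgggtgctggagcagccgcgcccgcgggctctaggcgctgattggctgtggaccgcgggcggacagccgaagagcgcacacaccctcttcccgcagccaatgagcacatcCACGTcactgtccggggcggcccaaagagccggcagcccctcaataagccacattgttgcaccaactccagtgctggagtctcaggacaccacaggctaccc
G6pdx: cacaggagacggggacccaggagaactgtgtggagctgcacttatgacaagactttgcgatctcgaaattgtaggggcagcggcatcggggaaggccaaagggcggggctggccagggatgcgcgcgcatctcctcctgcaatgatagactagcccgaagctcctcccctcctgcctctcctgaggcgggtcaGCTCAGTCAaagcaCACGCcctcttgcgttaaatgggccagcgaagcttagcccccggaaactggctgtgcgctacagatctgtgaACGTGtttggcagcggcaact
Tkt: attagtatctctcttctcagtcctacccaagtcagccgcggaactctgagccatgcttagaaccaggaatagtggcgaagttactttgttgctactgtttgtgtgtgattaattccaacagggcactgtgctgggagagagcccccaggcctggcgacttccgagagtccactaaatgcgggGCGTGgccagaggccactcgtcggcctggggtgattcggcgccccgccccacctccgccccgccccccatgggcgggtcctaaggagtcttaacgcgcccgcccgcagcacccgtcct
The Ldha window held 2 CACGTG and, counting these on both strands, 5 matches to ACGTG and 2 to GCGTG. The Hk2 window, of the gene called higher only without irradiated 1, held 2 matches to ACGTG, the G6pdx window 1 of each core and 1 TGACNNNGC, and the Tkt window 1 GCGTG. Of the members, 35 had at least 1 window, 49 in all, and Slc2a3 had none in the table. ACGTG or GCGTG stood in 77.6% of the member windows and in 43.8% of all 32851 windows, CACGTG in 8.16% and 7.15%, and TGACNNNGC in 14.3% and 12.4%. The member windows were richer in G and C, with a median of 60.7% against 52.7%, and both cores hold CG. A match to these letters describes the window and shows no binding.

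With all 7 arrays 2 of the 7 pentose phosphate members fell, G6pdx and Tkt, where 1.56% of all genes were called lower. G6pdx encodes glucose-6-phosphate dehydrogenase, the first and rate-limiting enzyme of the oxidative branch. Its level was 8.85, 8.73, 9.34 and 8.92 in controls 1 to 4 and 7.73, 7.59 and 7.49 in irradiated 1 to 3, and every irradiated array lay below every control. The log2 fold change was -1.36 (SE 0.21, limma adjusted p = 0.0268, n = 4 and 3), a level 2.56-fold lower, and -1.42 without irradiated 1 (adjusted p = 0.0192). G6pdx, Pgk1 and Pdha1 are on the X chromosome. Pgk1, like G6pdx, lay below every control in every irradiated array (-0.78, and -0.66 without irradiated 1), without passing. The levels of Pdha1, a pyruvate dehydrogenase subunit gene, overlapped between the groups, at 7.14 to 7.79 and 7.23 to 7.61 (0.029, and -0.067 without irradiated 1).

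Tkt encodes transketolase, which moves short carbon units between sugars in the non-oxidative branch. It was at 7.85, 8.26, 8.47 and 8.43 in the controls and at 7.07, 6.88 and 7.06 in the irradiated arrays. The groups did not overlap, and the irradiated arrays lay close together. The log2 fold change was -1.25 (SE 0.19, adjusted p = 0.0268), and -1.28 without irradiated 1 (adjusted p = 0.0253). Taldo1, the gene of transaldolase, which works beside transketolase, was at 7.53, 7.67, 8.01 and 8.27 and at 6.65, 6.59 and 7.25. It too did not overlap, with irradiated 3 the highest irradiated array, but did not pass (-1.04, SE 0.24, adjusted p = 0.0792; -0.95 and 0.0996 without irradiated 1).

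The other members of this pathway overlapped between the groups. Pgd, the gene of the second dehydrogenase of the oxidative branch, was at 7.37 in control 1, at 8.56 to 8.64 in the other controls and at 7.28, 7.66 and 7.76 in the irradiated arrays. Apart from control 1 its groups were separated, and its log2 fold change was -0.72 with all arrays (adjusted p = 0.288), -0.58 without irradiated 1 and -1.03 without control 1. Pgls, the lactonase gene between the 2 dehydrogenases, and Rpe, the gene of ribulose-phosphate epimerase, had log2 fold changes of -0.34 and -0.30 (adjusted p = 0.304 and 0.344), and of -0.26 and -0.30 without irradiated 1. Rpia, the gene of the isomerase that makes ribose-5-phosphate, was at 6.32 to 6.65 and 6.14 to 6.83 (0.058, adjusted p = 0.871; 0.0020 without irradiated 1). The median over the 7 genes was -0.72, and -0.58 without irradiated 1.

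**Figure D2:**
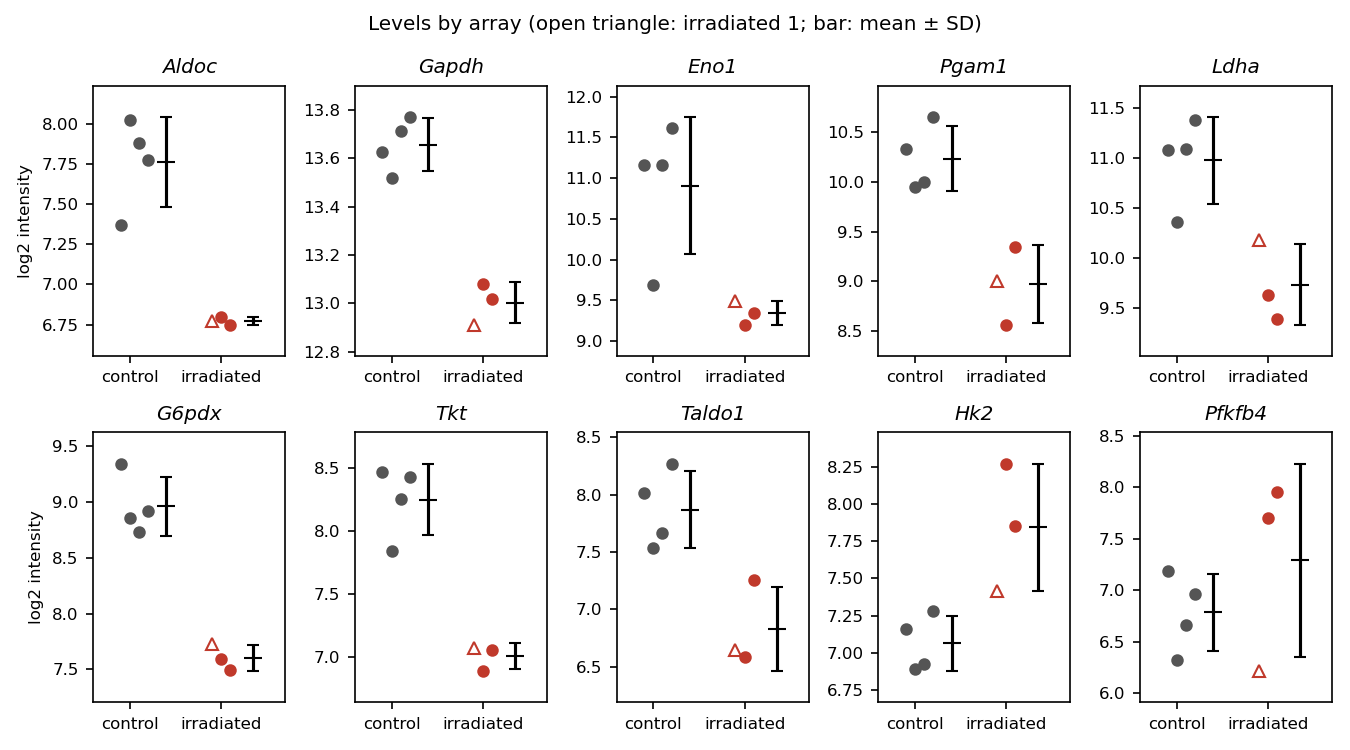
Log2 intensity (y axes, 1 scale per gene) of 10 member genes in the 4 control (grey) and 3 irradiated arrays (red, irradiated 1 as an open triangle), with the mean and SD of each group as a bar. In G6pdx and Tkt the irradiated arrays lie together below the controls, in Eno1 control 1 lies near them, and in Pfkfb4 irradiated 1 lies below the controls and the other 2 above.

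In glycolysis 2 of 18 tested members fell, Aldoc and Gapdh, and 0 rose (limma, at an unadjusted p under 0.05, 10 lower and 1 higher). Of all genes 1.56% were called lower and 0.115% higher, and 16.1% were lower and 3.6% higher at an unadjusted p under 0.05. Without irradiated 1 the same 2 fell and 1, Hk2, rose, where 3.06% of all genes were called lower and 1.58% higher. The median log2 fold change over the 19 genes was -0.56, and -0.44 without irradiated 1. Aldoc encodes aldolase C, an isoenzyme of the step that cleaves fructose-1,6-bisphosphate. It was at 8.02, 7.88, 7.37 and 7.77 in the controls and at 6.77, 6.80 and 6.75 in the irradiated arrays. It fell by 0.99 on the log2 scale (SE 0.17, limma adjusted p = 0.0396), and by as much without irradiated 1 (adjusted p = 0.0425). The irradiated arrays lay within a narrow range below the lowest control. Aldoa, the gene of aldolase A, was at 10.85, 11.30, 11.13 and 11.66 and at 9.95, 10.45 and 10.58. It did not overlap either and did not pass (-0.91, SE 0.26, adjusted p = 0.127; -0.72 and 0.137 without irradiated 1).

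Gapdh, the gene of glyceraldehyde-3-phosphate dehydrogenase and often a reference gene for RNA levels, was at 13.52, 13.71, 13.63 and 13.77 in the controls and at 12.91, 13.08 and 13.02 in the irradiated arrays. Its log2 fold change of -0.65 (SE 0.10, adjusted p = 0.0284) was a level 1.57-fold lower, and it was -0.61 without irradiated 1 (adjusted p = 0.0231). The annotation lists 28 probe sets for Gapdh, of which the brightest was used. Their log2 fold changes lay between -0.77 and -0.52, and in all 28 every irradiated array lay below every control. Gapdh has many processed pseudogenes, so these probe sets can share signal and are no independent measurements. When each probe set was tested on its own, a comparison added after the data had been seen, 25 of the 28 passed (adjusted p = 0.0131 to 0.172).

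Eno1, the gene of the main enolase, had the largest log2 fold change of the members with all 7 arrays, -1.56 (SE 0.44, adjusted p = 0.119), and -1.63 without irradiated 1 (adjusted p = 0.112). It was at 9.68 in control 1, at 11.17, 11.16 and 11.61 in controls 2 to 4 and at 9.49, 9.20 and 9.35 in the irradiated arrays, so that control 1 lay just above them. Without control 1 it passed (-1.97, adjusted p = 0.0208). Its 3 probe sets disagreed about control 1. A second gave a like pattern, with control 1 at 9.81 and a log2 fold change of -1.52 (adjusted p = 0.0957), but in the third the controls were at 10.69, 10.83, 10.75 and 11.17 and the irradiated arrays at 9.28, 8.84 and 8.96. Tested on its own, that probe set passed (-1.83, SE 0.21, adjusted p = 0.00974; 0.00866 without irradiated 1). Whether a probe set also reads a pseudogene of Eno1 was not tested.

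Further genes of the steps shared by glycolysis and sugar synthesis, and the pyruvate kinase gene, had lower means without passing. Pgam1, the gene of phosphoglycerate mutase, was at 9.95, 9.996, 10.33 and 10.65 and at 9.004, 8.56 and 9.35 (log2 fold change -1.26, SE 0.28, adjusted p = 0.0754; -1.28 and 0.0621 without irradiated 1), and both of its probe sets were separated. Gpi1, the gene of the isomerase that makes fructose-6-phosphate, was at 11.05, 11.03, 10.88 and 11.11 and at 9.63, 10.52 and 10.65. Its difference was largest in irradiated 1, with a log2 fold change of -0.75 with that array and -0.44 without it (adjusted p = 0.198 and 0.161). Tpi1, the triose-phosphate isomerase gene, and Pgk1, the phosphoglycerate kinase gene, had log2 fold changes of -0.56 and -0.78 (adjusted p = 0.234 and 0.247), and of -0.62 and -0.66 without irradiated 1, with groups that did not overlap. In Pgk1 control 4 was high, at 9.25 against 7.87, 8.24 and 8.27 in the other controls and 7.41, 7.85 and 7.63 in the irradiated arrays. Pkm2 had a log2 fold change of -0.99 (adjusted p = 0.199), and of -1.03 without irradiated 1.

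Hk2 encodes hexokinase 2, an inducible enzyme that traps glucose in the cell as glucose-6-phosphate. It was at 6.89, 6.92, 7.16 and 7.28 in the controls and at 7.41, 8.27 and 7.85 in the irradiated arrays. Every irradiated array lay above every control, irradiated 1 by the least. The log2 fold change was 0.78 (SE 0.22, adjusted p = 0.119) with all arrays, and without irradiated 1 Hk2 rose by 0.998 (adjusted p = 0.0347), a level 1.997-fold higher. Hk1 and Hk3, the other hexokinase genes, overlapped, at 6.86 to 7.15 and 6.92 to 7.34 for Hk1 and at 6.88 to 6.95 and 6.38 to 6.95 for Hk3. Their log2 fold changes were 0.073 and -0.18, and without irradiated 1 -0.035 and -0.0053.

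Pfkfb4, which like Pfkfb3 encodes an enzyme that sets fructose-2,6-bisphosphate, the activator of phosphofructokinase, was at 6.33, 6.66, 7.19 and 6.96 in the controls, at 6.21 in irradiated 1 and at 7.70 and 7.96 in irradiated 2 and 3. The array without LC markers thus lay below all controls and the other 2 above them. Its log2 fold change was 0.50 with all arrays (adjusted p = 0.518) and 1.04 without irradiated 1 (adjusted p = 0.0617). Pfkfb3 had one of -0.11 (adjusted p = 0.894), and of -0.076 without irradiated 1. Of the phosphofructokinase genes, Pfkp, of the platelet-type subunit, was at 7.64, 8.11, 8.34 and 8.19 and at 7.19, 7.498 and 7.48 (-0.68, SE 0.21, adjusted p = 0.138; -0.58 and 0.179 without irradiated 1). The liver-type Pfkl and the muscle-type Pfkm overlapped (0.040 and 0.16, and without irradiated 1 0.095 and -0.015). Eno2, the gene of neuronal enolase, overlapped at 6.18 to 6.41 and 5.66 to 6.79 (-0.036, and -0.31 without irradiated 1). Fbp1, which works in the opposite direction in sugar synthesis, was below the limit for dim genes in every array, at 4.34 to 4.498, and was not tested.

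**Figure D3:**
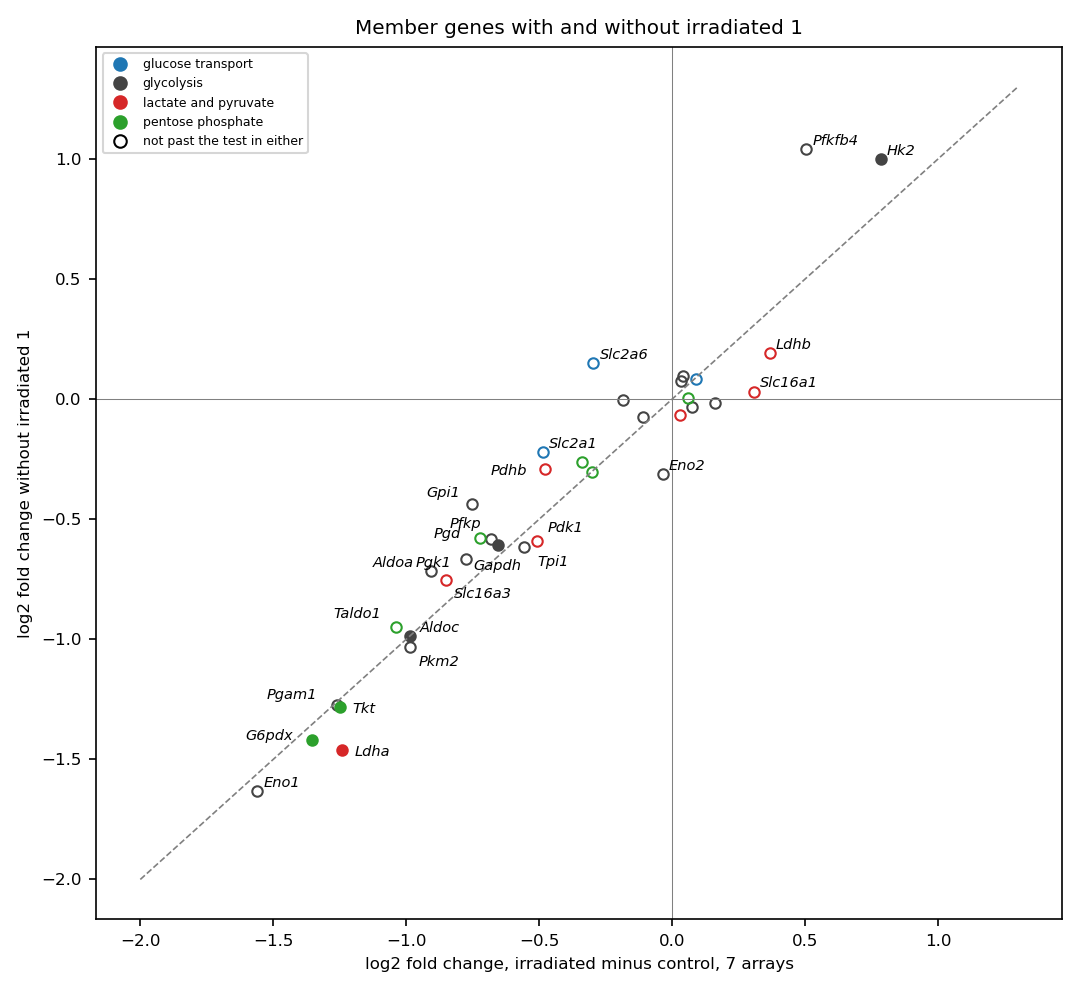
Log2 fold change (irradiated minus control) of the 36 member genes over all 7 arrays (x axis) and without irradiated 1 (y axis), coloured by role group, with filled points for genes past the limma threshold in either comparison and a dashed line of equality. Most of the members lie near the line, and Pfkfb4 (0.50 and 1.04) and Slc2a6 (-0.30 and 0.15) lie above it.

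In the lactate and pyruvate group 0 of 7 members passed with all arrays (limma, 4 lower and 1 higher at an unadjusted p under 0.05). Of all genes 16.1% were lower and 3.6% higher at that unadjusted p. Without irradiated 1, Ldha fell, where 3.06% of all genes were called lower. The median log2 fold change over the group was -0.48, and -0.29 without irradiated 1. Ldha encodes the lactate dehydrogenase subunit that favours the reduction of pyruvate to lactate. It was at 10.36, 11.09, 11.08 and 11.37 in the controls and at 10.18, 9.63 and 9.39 in the irradiated arrays. Control 1 was the lowest control and irradiated 1 the highest irradiated array. The log2 fold change was -1.24 (SE 0.31, adjusted p = 0.0937) and, without irradiated 1, -1.46 (adjusted p = 0.03999), a level 2.75-fold lower. Ldhb, the gene of the other subunit, was at 6.23 to 6.38 in the controls and at 7.02, 6.52 and 6.47 in the irradiated arrays (0.37, SE 0.15, adjusted p = 0.239; 0.19 without irradiated 1). Its second probe set overlapped between the groups and was too dim to test.

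Slc16a3, the gene of the monocarboxylate transporter that exports lactate from glycolytic cells, was at 7.69, 8.11, 8.87 and 8.90 and at 7.34, 7.53 and 7.75. Only irradiated 3 overlapped with the controls, and there only with control 1 (-0.85, SE 0.33, adjusted p = 0.212; -0.75 without irradiated 1). Slc16a1, the gene of a more widely expressed lactate transporter, was at 5.94 to 6.51 in the controls, at 7.06 in irradiated 1 and at 6.33 and 6.14 in the others (0.31, adjusted p = 0.506; 0.030 without irradiated 1). Pdk1, the gene of a kinase that switches pyruvate dehydrogenase off, was at 6.36, 6.65, 6.71 and 6.99 and at 6.33, 6.14 and 6.04 (-0.51, SE 0.16, adjusted p = 0.154; -0.59 and 0.114 without irradiated 1). Its values lay near the limit for dim genes of 6.07. Pdhb, a pyruvate dehydrogenase subunit gene, was at 6.79 to 6.93 and at 6.02, 6.77 and 6.405 (-0.48, SE 0.17, adjusted p = 0.196), with irradiated 1 the lowest, and without that array the log2 fold change was -0.29 (adjusted p = 0.291).

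None of the 3 glucose transporter genes passed, with all arrays or without irradiated 1 (limma, 0 at an unadjusted p under 0.05 in both). Slc2a1, the gene of the widely expressed transporter GLUT1, was at 9.92, 10.80, 10.52 and 11.34 in the controls and at 9.62, 10.22 and 10.64 in the irradiated arrays. Irradiated 2 and 3 lay within the range of the controls, and the log2 fold change was -0.49 (SE 0.38, adjusted p = 0.5005) with all arrays and -0.22 without irradiated 1. Slc2a6, the gene of a transporter of lysosomal membranes, was at 8.02 to 8.55 in the controls, at 7.08 in irradiated 1 and at 8.61 and 8.25 in irradiated 2 and 3. Its log2 fold change was -0.30 with that array and 0.15 without it. Slc2a3, of the high-affinity transporter GLUT3, was at 6.01 to 6.89 and 6.41 to 6.55 (0.090, adjusted p = 0.814; 0.082 without irradiated 1).

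Genes of 1 family were compared with each other. The log2 ratio of 2 genes was taken within each array, for all 14 pairs within the families, which were chosen after the data had been seen. Only the change of such a ratio can be read, since probe sets differ in brightness. In 5 pairs the ratios of the irradiated and control arrays did not overlap, and in 9 they did. Some genes stand in several pairs, and the share over other pairs of genes was not taken. The count is thus no result about these families. Among single genes tested, every irradiated array lay below every control in 15.3% and above in 3.46%. The Ldha to Ldhb ratio was lower by 1.61 log2 after irradiation (control SD 0.39, irradiated SD 0.13), with each irradiated array at 2.92 to 3.15 and each control at 4.13 to 5.07. The Hk2 to Hk3 ratio was higher by 0.97 (SD 0.16 and 0.19) and the Pfkl to Pfkp ratio by 0.72 (SD 0.14 and 0.21). The Slc16a1 to Slc16a3 ratio was higher by 1.16 (SD 0.52 and 0.68). In these 4 pairs the two-sided exact permutation test gave p = 0.0286, the smallest that 35 splits of the arrays allow. After Benjamini-Hochberg adjustment over the 14 pairs the smallest p was 0.1, so no pair passed. The fifth pair, Pfkm and Pfkp, gave an exact p = 0.0571 and differed by 0.84. Without irradiated 1 the 5 differences were -1.65, 1.003, 0.68, 0.78 and 0.57, in the order given. The dimmer genes of these pairs, Ldhb, Hk3, Pfkl, Slc16a1 and Pfkm, had control means of 6.31, 6.92, 6.65, 6.20 and 6.58. The limit for dim genes was 6.07. The log2 fold changes of these genes were 0.37, -0.18, 0.040, 0.31 and 0.16, and 0.19, -0.0053, 0.095, 0.030 and -0.015 without irradiated 1. The ratios thus mainly followed the brighter gene. A switch between family members was not tested.

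**Figure D4:**
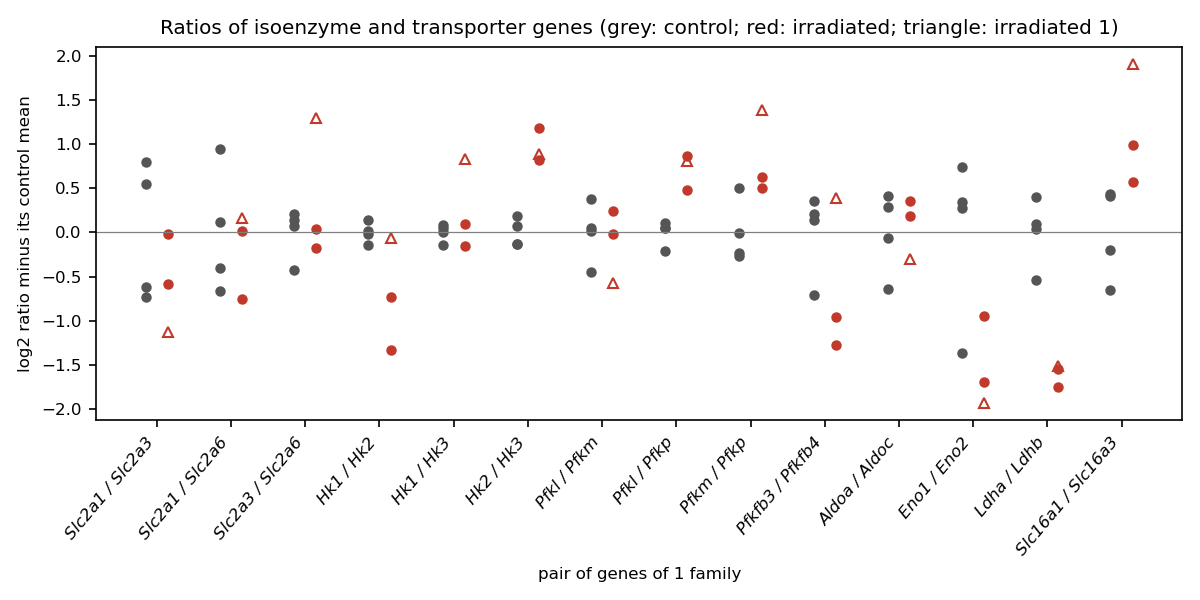
Log2 ratio of 2 genes of 1 family within each array, minus the mean of that ratio over the controls (y axis), for 14 pairs (x axis), with controls in grey, irradiated arrays in red and irradiated 1 as a triangle. The Ldha to Ldhb ratios of the 3 irradiated arrays lie together below all controls, and those of Aldoa to Aldoc overlap with the controls.

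The other genes of these pathways, from lists chosen with earlier results of these data known, had medians nearer to 0 than the members, apart from the tricarboxylic acid cycle, which oxidises the carbon of pyruvate. The medians include genes too dim to test, 8 of 22 for transport and glycolysis, 4 of 18 for lactate and pyruvate and 2 of 11 for pentose phosphate. In such genes a fall can go unseen. Of the 17 genes of the tricarboxylic acid cycle 2 fell with all arrays, where 1.56% of all genes were called lower, and 3 without irradiated 1 (3.06%). In 11 every irradiated array lay below every control (15.3% of all genes), or in 12 without irradiated 1 (20.3%). The median log2 fold change was -0.61, and -0.53 without irradiated 1. Fh1, the fumarase gene, was at 7.42, 7.71, 7.80 and 7.73 in the controls and at 6.77, 6.57 and 6.67 in the irradiated arrays (-0.995, SE 0.14, adjusted p = 0.0196; -1.05 and 0.0179 without irradiated 1). Sdhb, a succinate dehydrogenase subunit gene, was at 7.67, 7.96, 8.26 and 8.199 and at 6.80, 7.01 and 7.09 (-1.05, SE 0.19, adjusted p = 0.0396; -0.97 and 0.0444 without irradiated 1). Idh3g, an isocitrate dehydrogenase subunit gene, was at 9.95, 9.72, 9.84 and 9.67 and at 8.78, 8.76 and 8.93. It passed only without irradiated 1 (-0.95, adjusted p = 0.0347; 0.0570 with all arrays). In all 3 genes the irradiated arrays lay clear of the controls.

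Of 18 further lactate and pyruvate genes 14 were tested, and 0 passed with all arrays (limma, 4 lower and 0 higher at an unadjusted p under 0.05). Of all genes 16.1% were lower and 3.6% higher at that unadjusted p. Mpc1, listed under its older name Brp44l, encodes a subunit of the carrier that takes pyruvate into mitochondria. It was at 10.16, 9.99, 9.90 and 9.94 in the controls and at 8.97, 8.65 and 9.22 in the irradiated arrays, and fell without irradiated 1 (-1.06, adjusted p = 0.0427; 0.0614 with all arrays). Of 22 further transport and glycolysis genes 14 were tested and of 11 further pentose phosphate and ribose genes 9 were, and 0 of either list passed in either comparison. At an unadjusted p under 0.05, limma gave 1 gene lower and 0 higher in each list with all arrays, and without irradiated 1 it gave 2 lower and 0 higher in the first and 3 lower and 1 higher in the second. Of all genes 16.1% were lower and 3.6% higher with all arrays, and 15.1% and 6.56% without irradiated 1. The median log2 fold changes over the listed genes of these 2 lists were -0.0044 and -0.017, and without irradiated 1 -0.017 and 0.0045. Their genes with the highest mean were Pgm1, a phosphoglucomutase gene (8.69 ± 0.29 in control and 8.51 ± 0.30 in irradiated LC, SD, n = 4 and 3), and Prpsap1, which encodes a partner of ribose-phosphate pyrophosphokinase (7.81 ± 0.085 and 7.38 ± 0.37). Their log2 fold changes were -0.18 and -0.42, and -0.046 and -0.62 without irradiated 1.

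Among 18 tested regulators of glycolytic genes, of 19 listed, 0 passed with all arrays or without irradiated 1 (limma, 4 and 2 lower and 0 higher at an unadjusted p under 0.05), and the median log2 fold change was -0.17, or -0.19 without irradiated 1. Of all genes 16.1% and 15.1% were lower, and 3.6% and 6.56% higher, at that unadjusted p. The regulator with the highest mean was Txnip, the gene of a protein that restrains glucose uptake, at 9.37, 10.10, 10.11 and 10.00 in the controls and 10.11, 10.35 and 10.09 in the irradiated arrays (0.29, adjusted p = 0.542; 0.32 without irradiated 1). Control 1 was again the lowest array. 

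**Figure D5:**
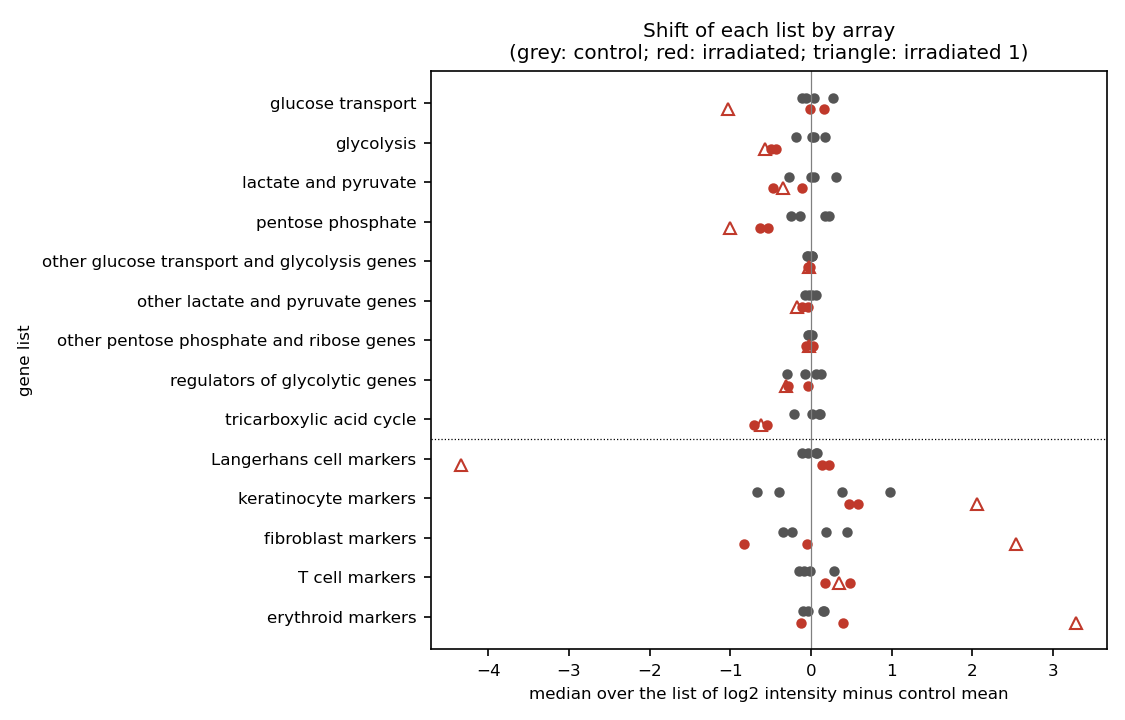
Median over each gene list of log2 intensity minus the control mean (x axis), for the member groups, the other pathway lists and, below the dotted line, marker lists of cell types (y axis), with controls in grey, irradiated arrays in red and irradiated 1 as a triangle. For glycolysis the irradiated arrays lie at -0.57, -0.50 and -0.43, and for the pentose phosphate group at -1.01, -0.63 and -0.53, while LC markers lie at -4.33 in irradiated 1 and at 0.13 and 0.22 in the others.

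The summed keratinocyte and fibroblast marker signals lay above the controls in irradiated 1 only. The T cell sums did so in irradiated 1 and 3, and the erythroid sums in irradiated 1 and 2. The members had lower medians in all 3 irradiated arrays. Over the 19 glycolysis genes the median shift from the control mean was -0.57, -0.50 and -0.43 in irradiated 1 to 3, and -0.19 to 0.18 in the controls. In irradiated 1, 12 of 15 keratinocyte, 9 of 9 fibroblast, 5 of 5 erythroid and 4 of 7 T cell markers found lay above every control. In irradiated 2 the counts were 4, 0, 4 and 3, and in irradiated 3 they were 2, 0, 0 and 6. Over all genes tested 27.6%, 18.3% and 19.5% lay above every control in irradiated 1, 2 and 3. The summed T cell marker signal was 1066, 848 and 1840 in irradiated 1 to 3, against 610 to 880 in the controls. The summed keratinocyte and fibroblast signals of irradiated 2 and 3 were 9312 and 7390, and 4347 and 1222, with both keratinocyte sums inside the control range and the fibroblast sum of irradiated 3 below it. The erythroid sums of irradiated 2 and 3 were 1276 and 353, against 480 to 1121 in the controls. The part of these cells in the member levels was not tested. G6pdx, Tkt, Aldoc and Gapdh passed the threshold with irradiated 1 and without it, in comparisons that share most of their arrays. Without control 2, control 4, irradiated 2 or irradiated 3 in turn, 0 members were called lower, and without control 3 only Aldoc was.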

How the data were processed

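Total RNA of sorted Langerhans cells was labelled with biotin and hybridised by the ImmGen consortium, per the labels' protocols. Each deposited value is the intensity of 1 probe set on 1 array. Per the submitters' processing notes the authors summarised and normalised the arrays by RMA (robust multi-array average). The sources used here give neither its version nor the array design, nor which arrays were normalised together. The values are linear, and the 2 deposited tables were equal in 174454 of 174454 values within 1e-09.

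From these, log2 was taken, and of several probe sets with 1 symbol that with the highest mean was kept (1854 of 21755 symbols had several). The lowest 40% of symbols by mean (below 6.07 log2, an intensity of 67.3) were left out, as a filter and not a detection limit. For the 13053 genes left, limma 3.58.1 (R 4.3.3) was run with lmFit and then eBayes with an intensity trend, p-values were adjusted over all of them by Benjamini and Hochberg, and 0.05 was the threshold. No test was made over the members alone. On simulated data of this comparison (13053 genes, 5 runs with 200 changed) 49.4% of genes changed 2-fold passed, as did 82.6% of those changed 4-fold. The share of false calls was 5.04%. The simulated noise was independent between genes, with the same SD in every array. An outlying array such as irradiated 1 and shifts shared by many genes were not simulated, so the real rates may differ.

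Members and lists were chosen with earlier results of these data known. Named are all members and, of each other list, genes past the threshold in either comparison or else the one with the highest mean. Other genes named are the fixed markers, and Xist, Ddx3y and Cdkn1a, which were chosen after their values were seen. Of 36 members 4 (Hk3, Pfkm, Fbp1 and Eno2) had equal values in at least 2 arrays. Replicate numbers are shared by both groups, and other filters, scalings, probe set rules and sets of arrays were tried. RefSeq (GRCm38.p6) gave synonyms, chromosomes and promoters. Of the 8 T cell markers 1, Trdc, was not found.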

Additional observations from a re-analysis of the deposited data

Results flagged for a closer look

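Of the 36 members, 2 had a control array far from the other 3 controls, by the gap to its neighbour over the whole range. In Pgd, the gene of phosphogluconate dehydrogenase, control 1 was at 7.37 and the other controls at 8.56 to 8.64. In Pfkm, the gene of muscle-type phosphofructokinase, control 4 was at 6.43 and the others at 6.62 to 6.65, where controls 2 and 3 held an equal value. Chance alone gives such a gap in about 1 of 20 groups.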

How the results depend on the processing

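G6pdx, Tkt, Aldoc and Gapdh kept their direction under all 20 settings (the reported one included), and passed in 10, 11, 10 and 9 of them, with adjusted p from 0.0146 to 0.208, 0.0197 to 0.204, 0.0312 to 0.249 and 0.0176 to 0.204. Ldha passed in 2 of the 20, and Hk2, Eno1 and Pgam1 in 1 each. The 20 are not independent. The setting with the other deposited table repeats the reported one, as the values are equal. A term for the earlier record gives the same fold changes as controls 2 and 3 only (member median -0.476 in both). A block for the replicate number gives the same as leaving out control 4 (-0.394 in both). Without a filter 2 members and 130 genes (0.598%) were called lower, and with quantile normalisation 2 members and 137 genes (1.05%). With the replicate block 0 members and 0 genes were called in either direction (limma, 13 members lower and 1 higher at an unadjusted p under 0.05). Of all genes 12.4% were then lower and 3.29% higher at that unadjusted p. Deviations of same-numbered arrays from their group means correlated at 0.021, -0.055 and 0.17. These values cannot decide whether the numbers pair the arrays, as the outlying irradiated 1 enters the mean of its group. With the earlier record as a term, and with controls 2 and 3 only, 0 members, 1 lower and 0 higher genes were called (limma, 13 and 15 members lower at an unadjusted p under 0.05), and controls 2 and 3 against irradiated 2 and 3 gave 0 members, 0 lower genes and 1 higher gene. With the record term and with controls 2 and 3 only, 10.8% and 12% of all genes were lower at an unadjusted p under 0.05. Leaving out 1 array at a time gave 0 to 6 members lower, 0 to 1 higher, and 2 to 399 genes lower and 0 to 206 higher. Fewer arrays entered these fits, and other causes were not tested. The pentose phosphate median was -1.01 with the record term and with controls 2 and 3 only, and -1.03 to -0.58 with 1 array left out. The glycolysis median was -0.32 with quantile normalisation. None of the genes that changed sign was called. Pfkfb3 was at 0.13 with quantile normalisation and 0.068 with the block, Pgm1 at 0.046 with quantile normalisation and 0.061 with controls 2 and 3 against irradiated 2 and 3, and Hk1 and Pfkm at -0.090 and -0.054 in the latter. Pfkl and Eno2 were at -0.031 and 0.016 with the record term and with controls 2 and 3 only. With 1 array left out Slc2a3 ranged from -0.040 to 0.25, Slc2a6 from -0.61 to 0.15, Hk1 from -0.035 to 0.17, Pfkl from -0.085 to 0.12, Pfkm from -0.015 to 0.27, Pfkfb3 from -0.50 to 0.070, Eno2 from -0.31 to 0.25, Pdha1 from -0.067 to 0.16 and Rpia from -0.086 to 0.26. Signals near the limit for dim genes, such as Pdk1 and Eno2, limit what can be read.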
